A study of Paxillus involutus with 25 samples.

Results

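The genes described here were at least 3-fold lower in Paxillus involutus, by share of library counts, when KH2PO4 was left out of its medium. They are those that K-vermiculite, a potassium-bearing mineral, brought back part of the way. They number 108 of the 18032 genes in the table. Paxillus involutus is a basidiomycete that forms ectomycorrhiza, a symbiosis in which hyphae sheathe tree roots and pass mineral nutrients to the tree. mRNA of its mycelium (strain ATCC 200175) was sequenced from 25 dish cultures in 5 groups of 5 biological replicates, kept in the dark at 25 °C for 21 days and inoculated at 3 points of each dish. The groups were complete MMN agar, MMN agar made without KH2PO4 (K-depleted medium), and K-depleted agar carrying flakes of muscovite, phlogopite or K-vermiculite on a cellophane membrane. All 3 mineral groups therefore share the missing KH2PO4 with the K-depleted controls, and since that salt supplies phosphate as well as potassium, the nutrients cannot be told apart. All cultures were 1 strain in pure culture without a host root. Library totals were 21035680 to 41217502 counts.

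Potassium is the main inorganic cation of fungal cells, where it balances charge, sets turgor and activates many enzymes. Fungi take it up through transporters and channels of the plasma membrane, and phosphate through separate transporters, and they change the transcription of many genes when either runs short. Muscovite, phlogopite and K-vermiculite are layered silicates with potassium in their interlayers, and ectomycorrhizal fungi are known for releasing it by acidification and by organic acids. The deposited table and the gene table used here give locus tags without product names, so no function is given for a member here, and no list of transporter or starvation genes could be counted beside them. All 108 are listed as protein-coding. Values of genes with a near-identical copy carry an added uncertainty, since the treatment of reads that fit several genes is not given in the sources used here.

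Members were chosen from measured values. CPM is the count of a gene per 1000000 counts of its library. A member had a mean of at least 10 CPM on complete medium and a ratio of complete to K-depleted mean CPM, each plus 0.5, of at least 3. Its position f, the K-vermiculite mean placed on a log2(CPM + 0.5) scale between K-depleted medium (0) and complete medium (1), had to be at least 0.25 and below 0.75. Of the 210 genes that met the level and the ratio, 83 had a lower f, 19 a higher one, and 108 lay between. Levels on complete medium, on K-depleted medium and with K-vermiculite chose the members, so comparisons among these 3 groups describe the choice and carry no test. The muscovite and phlogopite libraries played no part in it. Only phlogopite against muscovite is a comparison of libraries that were all outside the rule. Comparisons of these minerals with K-depleted medium or K-vermiculite reuse libraries that were in it.

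**Figure D1:**
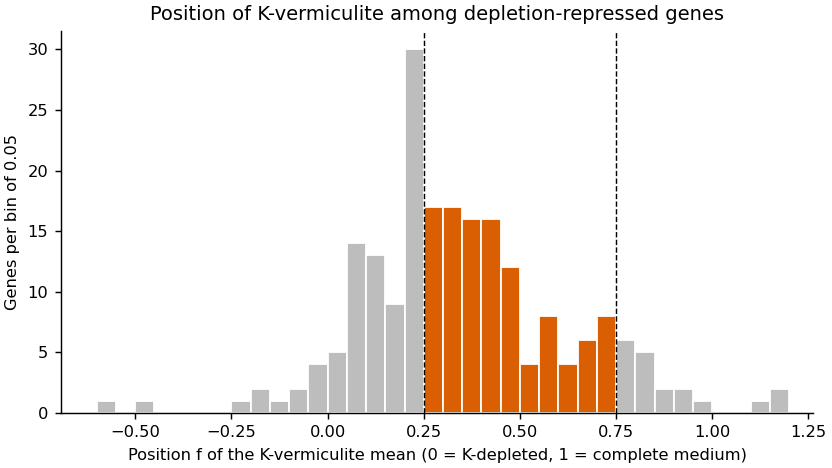
Number of genes (y axis, bins of 0.05) by the position f of the K-vermiculite mean between K-depleted medium (0) and complete medium (1), for the 210 genes that met the level and ratio thresholds. Dashed lines mark 0.25 and 0.75, and the 108 genes between them (orange) are most numerous towards the lower line.

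Within the limits of the rule, most members sat nearer to K-depleted medium. The median f was 0.412, and 34 members lay between 0.25 and 0.35, 32 between 0.35 and 0.45, 16 between 0.45 and 0.55, 12 between 0.55 and 0.65 and 14 between 0.65 and 0.75. The distribution had no gap at either limit. PAXINDRAFT_103315 (f 0.251) and PAXINDRAFT_103153 (0.252) were just inside the lower one, and PAXINDRAFT_77267 and PAXINDRAFT_172341 (0.2499 and 0.249) just outside. At the upper limit PAXINDRAFT_16449 and PAXINDRAFT_17458 (0.739 and 0.737) were inside, PAXINDRAFT_19202 and PAXINDRAFT_171436 (0.757 and 0.778) outside. The ratio separated PAXINDRAFT_94341 and PAXINDRAFT_163783 (both 3.03) from PAXINDRAFT_118184 and PAXINDRAFT_12590 (2.997 and 2.99). The level separated PAXINDRAFT_103315 and PAXINDRAFT_8675 (10.03 and 10.3 CPM) from PAXINDRAFT_9069 and PAXINDRAFT_172267 (9.72 and 9.63 CPM).

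As a group the members took a small and medium-dependent share of the transcriptome. They held 1.09% to 1.19% of the counts in the 5 complete-medium libraries and 0.227% to 0.282% in the 5 K-depleted ones. With K-vermiculite the share was 0.435% to 0.556%, with muscovite 0.272% to 0.347% and with phlogopite 0.244% to 0.302%. The range with K-vermiculite overlapped none of the others, while those of phlogopite and muscovite each overlapped that of K-depleted medium. The median ratio of complete to K-depleted level was 3.798, with a highest value of 16.1. Median levels over the members, taken for each group separately, were 38.1 CPM on complete medium and 8.62 on K-depleted medium. They were 15.8 CPM with K-vermiculite, 9.74 with muscovite and 7.94 with phlogopite.

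**Figure D2:**
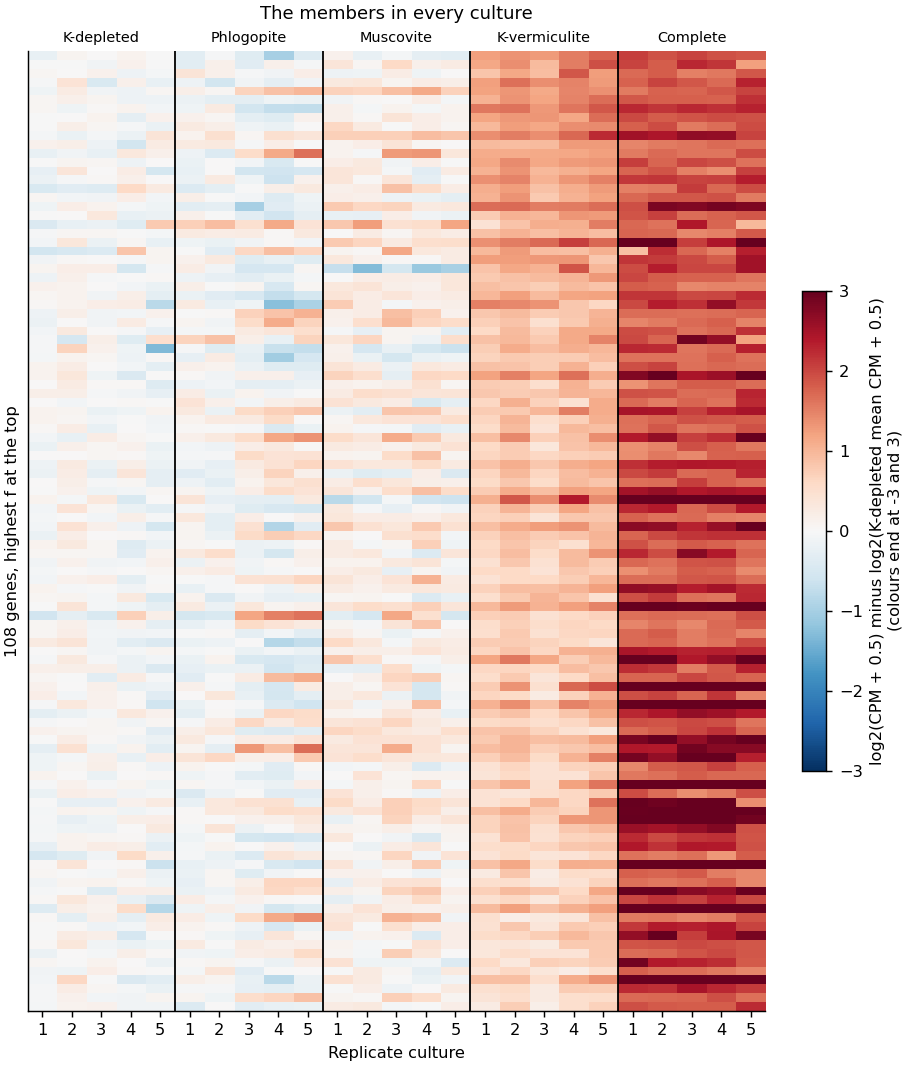
Level of each member (rows, highest f at the top) in each of the 25 cultures (columns, replicates 1 to 5 of each group), as log2(CPM + 0.5) minus that of the K-depleted mean; red is above the K-depleted mean and blue below. All rows are above the K-depleted mean in every complete-medium and K-vermiculite culture, paler with K-vermiculite, while muscovite is faintly red for most rows and phlogopite is mixed.

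The K-vermiculite cultures can be described one by one, although the means of these same libraries chose the members and largely fix how they separate. For 100 of the 108 members all 5 K-vermiculite values lay above all 5 K-depleted values, for 101 they lay below all 5 complete-medium values, and for 94 both held. Over the 12744 tested genes the corresponding shares were 16.9% above K-depleted and 26.4% below complete medium, but these groups chose the members and nothing is read from the contrast. PAXINDRAFT_157086 was among the members whose K-vermiculite and K-depleted values overlapped. It read 48.6, 60.4, 53.2, 119 and 82.7 CPM on K-depleted medium and 120.2, 125, 100, 110.0 and 118 CPM with K-vermiculite. K-depleted replicate 4 alone lay within the K-vermiculite range.

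The members with the most counts on complete medium show the pattern at full depth. Counts per gene also grow with transcript length, so this ranking is not one of expression per length. PAXINDRAFT_166580 read 730.2, 878, 1011, 1016 and 911 CPM on complete medium, then 287, 343, 294, 292 and 218 CPM on K-depleted medium, and 485, 479.7, 409, 590.2 and 485 CPM with K-vermiculite. The 3 sets of values did not overlap, and f was 0.464. With muscovite it averaged 328 ± 36.8 CPM (SD, n = 5) and with phlogopite 252 ± 15.7 CPM, and all 5 phlogopite values lay within the K-depleted range, as did 4 of the 5 muscovite values. PAXINDRAFT_165856 had a far higher ratio of complete to K-depleted level, 11.4 against 3.17 for PAXINDRAFT_166580.

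PAXINDRAFT_165856 read 783, 934, 844, 1045 and 921 CPM on complete medium, then 76.7, 98.2, 86.2, 81.4 and 52.0 CPM on K-depleted medium, and 163, 209.6, 145, 223 and 196 CPM with K-vermiculite. PAXINDRAFT_90896 followed it closely, with 701, 813, 686, 888 and 844 CPM, then 85.7, 110.1, 84.8, 85.6 and 53.4 CPM, then 154, 187, 123, 180.0 and 175 CPM in the same 3 groups. The level of the first over the second stayed between 0.892 and 1.24 in all 25 cultures, a pair singled out after the values were seen. The ratio was 1.09 to 1.23 on complete medium and 1.06 to 1.24 with K-vermiculite, against at most 1.02 on K-depleted medium. Both genes had their lowest K-depleted value in replicate 5 and their highest muscovite value in replicate 4, at 149 and 142 CPM. Their f values, 0.353 and 0.298, were low, so that K-vermiculite cultures held 187 ± 32.8 and 164 ± 25.9 CPM (SD, n = 5).

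PAXINDRAFT_93350, PAXINDRAFT_170907 and PAXINDRAFT_98774 complete the 6 members with the most counts. PAXINDRAFT_93350 averaged 521 ± 59.8 CPM on complete medium, 169 ± 20.4 on K-depleted medium and 259 ± 14.4 with K-vermiculite (SD, n = 5; f 0.377). PAXINDRAFT_98774 averaged 482 ± 79.8, 122 ± 25.8 and 220.4 ± 28.5 CPM in the same groups (f 0.432). PAXINDRAFT_170907 came back furthest of the 6, to 363 ± 34.6 CPM against 513 ± 62.5 on complete and 147 ± 18.1 on K-depleted medium (f 0.723). It is also the member that stood out with the other minerals, as described with them.

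The 4 members with the widest drop were far lower on K-depleted medium, and K-vermiculite returned each by less than the midpoint of the log scale. Their ratios of complete to K-depleted level were 16.1 for PAXINDRAFT_76416, 14.2 for PAXINDRAFT_140629, 13.8 for PAXINDRAFT_55253 and 13.6 for PAXINDRAFT_158236. PAXINDRAFT_55253 read 72.3, 63.2, 70.4, 65.6 and 63.2 CPM on complete medium, then 3.27, 5.00, 4.78, 6.73 and 2.22 CPM on K-depleted medium, and 8.95, 11.1, 8.49, 9.75 and 11.1 CPM with K-vermiculite. All its K-vermiculite values were above all K-depleted ones, yet its mean of 9.86 ± 1.18 CPM (SD, n = 5) was far under the 66.9 ± 4.20 CPM of complete medium. PAXINDRAFT_158236 averaged 29.5 ± 4.54 CPM on complete medium, 1.71 ± 0.690 on K-depleted medium and 3.84 ± 0.902 with K-vermiculite. PAXINDRAFT_140629 averaged 29.2 ± 5.26, 1.59 ± 0.229 and 4.85 ± 2.18 CPM.

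The members at the upper edge of the rule show the other extreme. PAXINDRAFT_16449 read 28.6, 25.6, 28.0, 25.8 and 24.7 CPM on complete medium, then 5.52, 6.86, 6.48, 7.04 and 6.42 CPM on K-depleted medium, and 16.0, 17.3, 16.5, 19.5 and 23.1 CPM with K-vermiculite. On the log scale its K-vermiculite mean thus stood closer to complete than to K-depleted medium. With muscovite it averaged 5.83 ± 0.829 CPM and with phlogopite 4.84 ± 1.19 CPM (SD, n = 5), beside 6.46 ± 0.591 CPM on K-depleted medium. PAXINDRAFT_17458 averaged 207 ± 55.5 CPM with K-vermiculite, 295 ± 74.0 on complete and 76.6 ± 4.47 on K-depleted medium, and complete-medium replicates 2 and 5, at 269.8 and 179 CPM, lay inside its K-vermiculite range of 147 to 292 CPM.

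K-vermiculite cultures differed among themselves in how far the members came back. The median position over the 108 members, on the scale where the control means are 0 and 1, was 0.331 in replicates 1 and 3, 0.450 in replicate 2, 0.444 in replicate 4 and 0.474 in replicate 5. For 63 members (58.3%) replicates 1 and 3 were both below the other 3 cultures, an order seen in 21.8% of all tested genes. This order was noticed in the values and is given as a description. All members were higher on complete medium, while the tested genes include both directions, so the shares are not alike. The genes that K-vermiculite left low had medians of 0.0938 and 0.0619 in replicates 1 and 3. Theirs were 0.160, 0.152 and 0.234 in replicates 2, 4 and 5, so the order was not particular to the members. Over the 12636 tested genes that are no members, a projection on the line between the controls placed the same cultures at 0.356 and 0.327, below 0.444, 0.441 and 0.506 for replicates 2, 4 and 5. Replicates 1 and 3 were thus also lowest over the other genes.

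Muscovite cultures had median positions of 0.0672 to 0.110 and phlogopite cultures of -0.0438 to 0.0240, beside -0.0360 to 0.0444 in K-depleted cultures. All 5 muscovite medians lay above the 5 K-depleted ones, while 4 phlogopite medians lay among the K-depleted ones and that of phlogopite replicate 4 lay below them. Over the 12636 other tested genes, the projection placed muscovite cultures at 0.0345 to 0.102 and phlogopite cultures at -0.00875 to 0.0641. K-depleted cultures lay at -0.0270 to 0.0471 there. Muscovite replicates 1 to 4 were thus above all K-depleted cultures over the other genes too, and replicate 5 was not. The spread over members was wide in some phlogopite cultures: the interquartile range ran from -0.194 to 0.190 in replicate 4, and from -0.0703 to 0.0536 in replicate 2.

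**Figure D3:**
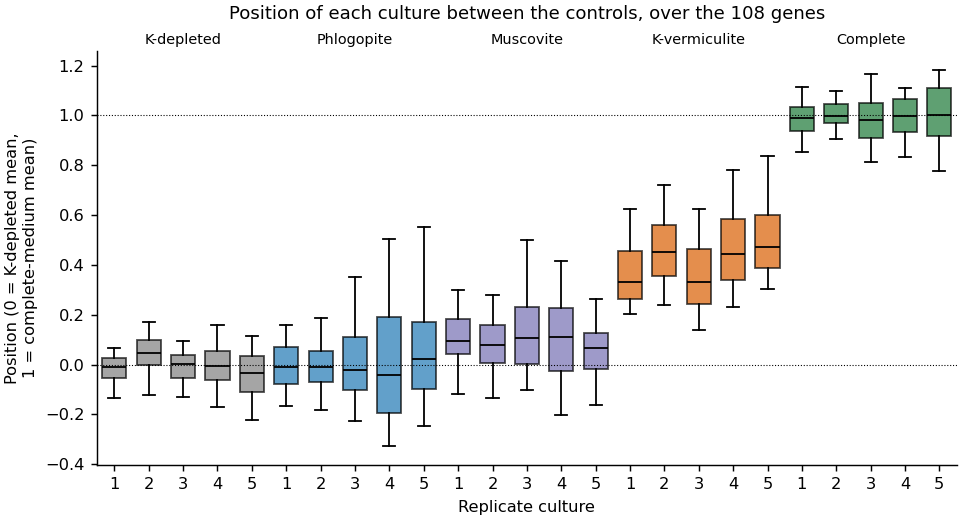
Position of each culture (x axis, replicates 1 to 5 of each group) between the K-depleted mean (0) and the complete-medium mean (1) over the 108 members. Boxes span the interquartile range with the median as a line, and whiskers run from the 5th to the 95th percentile; K-vermiculite medians lie between 0.331 and 0.474, replicates 1 and 3 lowest.

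The 2 members that varied most between K-vermiculite cultures, by coefficient of variation (SD over mean), were PAXINDRAFT_140629 (45.0%) and PAXINDRAFT_156833 (42.9%). PAXINDRAFT_140629 read 3.05, 4.82, 2.42, 6.39 and 7.59 CPM, lowest in replicates 3 and 1. PAXINDRAFT_156833 read 2.34, 2.72, 3.71, 2.77 and 6.07 CPM, with replicate 5 above the rest, while complete-medium replicate 5, at 5.08 CPM, was far under the other complete-medium cultures at 15.4 to 21.1 CPM. Among the 103 members with at least 5 CPM on average across libraries, the median coefficient of variation was 12.4% on complete medium, 12.9% on K-depleted medium, 14.1% with K-vermiculite, 15.8% with muscovite and 18.99% with phlogopite. Over all 10108 genes at that level it was 7.83%, 8.64%, 7.05%, 8.79% and 9.07% in the same order. The member median was the higher one in every group, but the members and the other genes were not matched on level. The 5 CPM were a mean over all 25 libraries, so a member could pass through complete medium. PAXINDRAFT_140629 read 24.5 to 37.5 CPM there and 1.34 to 1.83 CPM on K-depleted medium, where low counts add variation. Nothing is read from this contrast.

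Phlogopite against muscovite was the comparison free of the rule. The edgeR quasi-likelihood test called 12 of the 108 members at an adjusted p below 0.05 (11.1%), where 4.15% of all tested genes were called. Of these, 11 were lower with phlogopite (10.2%, against 2.21% of all tested genes) and 1 was higher (0.926%, against 1.94%). The median log2 fold change of the members was -0.16, beside 0.00 over all tested genes. Of the 108, 81 were below 0 (75%, against 49.9% of all tested genes). Of the 83 genes that K-vermiculite left low, 64 (77.1%) were also below 0, and of the 19 restored fully, 10 (52.6%). The other 96 members did not pass the test. Leaving out muscovite replicate 1 or 2 gave 5 calls, replicate 4 gave 7 and replicate 5 gave 4; leaving out phlogopite replicate 4 gave 5 and replicate 5 gave 4. DESeq2 called 19.

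**Figure D4:**
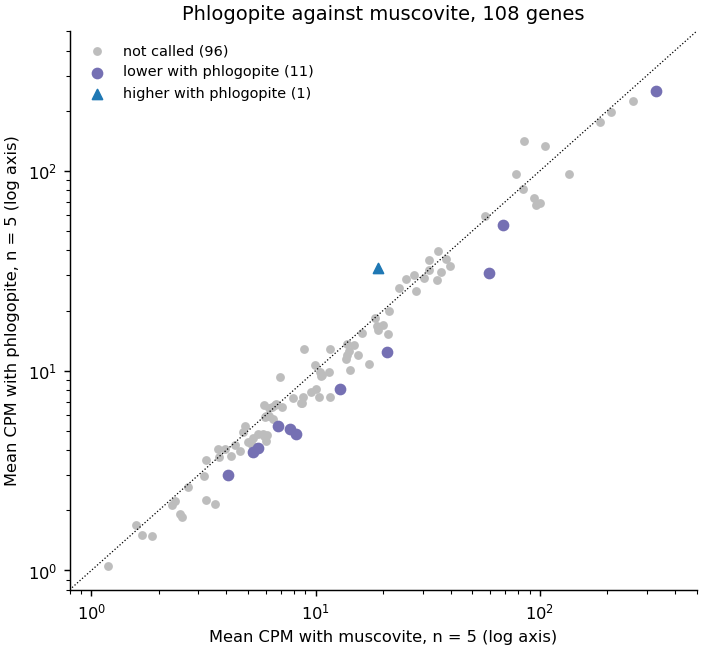
Mean CPM of each member with phlogopite (y axis) and with muscovite (x axis), both log axes, n = 5 cultures per group; the dotted line marks equal levels. Purple points are the 11 members called lower with phlogopite, the blue triangle is PAXINDRAFT_76742, the 1 called higher, and grey points are the 96 not called.

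PAXINDRAFT_169405 and PAXINDRAFT_166331 had calls that held in every fit. PAXINDRAFT_169405 read 70.2, 62.4, 64.8, 48.9 and 50.8 CPM with muscovite and 32.4, 33.4, 19.9, 31.5 and 36.0 CPM with phlogopite. The groups did not overlap, and the log2 difference was -0.95 ± 0.15 (SE; adjusted p 0.00131 by edgeR). PAXINDRAFT_166331 read 22.5, 19.9, 22.1, 19.5 and 20.2 CPM with muscovite and 14.8, 13.3, 12.0, 10.1 and 11.7 CPM with phlogopite, again without overlap, a log2 difference of -0.74 ± 0.09 (SE; adjusted p 3.34e-05 by edgeR). K-depleted cultures of PAXINDRAFT_166331 read 17.8, 18.4, 15.8, 19.3 and 13.8 CPM. Their mean of 17.0 ± 2.20 CPM (SD, n = 5) lay between those of the minerals, but replicate 5 lay inside the phlogopite range. The gene was called higher with muscovite (log2 difference 0.31 ± 0.09 SE, adjusted p 0.0453 by edgeR) and lower with phlogopite (-0.43 ± 0.09 SE, adjusted p 0.0111 by edgeR). The muscovite call was lost in 16 of the 25 fits that left out a library, with edgeR adjusted p up to 0.111 (without K-depleted replicate 3), with the 2 groups fitted alone (0.123) and with scaling by library totals alone (0.0755). The phlogopite call was lost with the 2 groups fitted alone (edgeR adjusted p 0.131).

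The other members named for this comparison were less firm. PAXINDRAFT_171811 read 9.68, 7.42, 6.81, 9.41 and 7.49 CPM with muscovite and 5.65, 4.19, 7.44, 2.63 and 4.07 CPM with phlogopite, where replicate 3 overlapped the muscovite range (log2 difference -0.77 ± 0.22 SE, adjusted p 0.0497 by edgeR). Its call was lost in 18 of the 25 fits without 1 library, at most at 0.139 without phlogopite replicate 4, and in 5 of the 7 other fits. PAXINDRAFT_76742 was the 1 member higher with phlogopite, and it is described with its neighbours. PAXINDRAFT_118467, chosen after its values were seen because its call held in every fit, averaged 68.2 ± 5.34 CPM with muscovite and 53.9 ± 2.87 CPM with phlogopite (SD, n = 5; log2 difference -0.33 ± 0.07 SE, adjusted p 0.0111 by edgeR).

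Against K-depleted medium few members passed the test with muscovite, and fewer with phlogopite; the difference between those counts was not tested. These comparisons use the K-depleted libraries that helped to choose the members, and they share those libraries with each other. A low K-depleted mean was part of the rule, which by itself favours a rise in both comparisons. The counts, medians and signs of the members carry that bias, and those of all tested genes do not. With muscovite 11 members were called (10.2%, against 3.36% of all tested genes), of which 10 were higher (9.26%, against 1.50%) and 1 was lower (0.926%, against 1.86%). The median log2 fold change was 0.26, beside 0.00 over all tested genes, and 93 of 108 members were above 0 (86.1%, against 49.0%). Of the 83 genes that K-vermiculite left low, 62 (74.7%) were also above 0, and of the 19 restored fully, 17 (89.5%). For 16 members all 5 muscovite values lay above all 5 K-depleted values, against 1.80% of all tested genes. Without K-depleted replicates 1, 3 or 4, or without muscovite replicate 2, 7 members were called, and without muscovite replicate 4, 5 were called; DESeq2 called 21.

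With phlogopite 5 members were called against K-depleted medium (4.63%, against 5.15% of all tested genes), 4 higher (3.70%, against 2.77%) and 1 lower (0.926%, against 2.38%). That share is near the background and is no result about the members. The median log2 fold change was 0.04, beside -0.01 over all tested genes, and 60 members were above 0 (55.6%, against 48.1%). The edgeR count was 0 when the 2 groups were fitted alone (27 members at an unadjusted p below 0.05), and DESeq2 called 13. It was 1 or 2 without any of K-depleted replicates 1 to 4, K-vermiculite replicate 1, complete-medium replicate 2 or phlogopite replicates 3 to 5. It was 3 without K-vermiculite replicate 2 or 3, complete-medium replicate 4 or muscovite replicate 1. It was 8 without K-depleted replicate 5 or muscovite replicate 3, and 14 and 20 without phlogopite replicates 1 and 2.

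Of the members called higher with muscovite, PAXINDRAFT_170907 had the largest log2 fold change. It read 135, 176, 138, 133 and 154 CPM on K-depleted medium, 237, 232, 275, 324 and 237 CPM with muscovite, and 165, 153, 233, 271 and 294 CPM with phlogopite. Every muscovite value was above every K-depleted one (log2 difference 0.85 ± 0.15 SE, adjusted p 0.00119 by edgeR), a call that held in every fit. With phlogopite, replicates 1 and 2 lay inside the K-depleted range and the other 3 above it (0.63 ± 0.15 SE, adjusted p 0.0195 by edgeR). That call was lost on leaving out K-depleted replicate 1, K-depleted replicate 3, phlogopite replicate 4 or phlogopite replicate 5, and when the 2 groups were fitted alone (0.161). With K-vermiculite it read 338, 367, 322, 409 and 379.9 CPM, all above the phlogopite values, and only replicate 3 under any muscovite value, that of muscovite replicate 4. Phlogopite and muscovite did not pass the test against each other (log2 difference -0.22 ± 0.14 SE, adjusted p 0.414 by edgeR).

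PAXINDRAFT_79732 was called higher with muscovite at 129, 127, 129, 148 and 139.9 CPM, against 75.4, 67.8, 75.1, 69.6 and 102 CPM on K-depleted medium (log2 difference 0.81 ± 0.15 SE, adjusted p 0.00202 by edgeR), and the call held in every fit. With phlogopite it read 84.6, 109, 81.8, 109 and 100.3 CPM, all below the lowest muscovite value and partly above the K-depleted range, and passed the test against neither (edgeR adjusted p 0.0672 against muscovite and 0.156 against K-depleted medium). PAXINDRAFT_169405 was the third named, at 59.4 ± 9.23 CPM with muscovite against 40.4 ± 4.33 CPM on K-depleted medium (SD, n = 5; log2 difference 0.58 ± 0.15 SE, adjusted p 0.0343 by edgeR), a call lost in 7 of 25 fits without 1 library, at most at 0.0897 without muscovite replicate 1, and with replicate numbers as a block (0.0523). For phlogopite the rule also named PAXINDRAFT_172462 and PAXINDRAFT_103062. PAXINDRAFT_172462 averaged 4.04 ± 1.69 CPM against 2.15 ± 0.300 (log2 difference 0.93 ± 0.27 SE, adjusted p 0.0443 by edgeR), and PAXINDRAFT_103062 averaged 25.8 ± 8.45 CPM against 17.1 ± 1.84 (0.63 ± 0.18 SE, adjusted p 0.0413 by edgeR). The call of PAXINDRAFT_172462 was lost in 11 of 25 fits without 1 library and that of PAXINDRAFT_103062 in 12, at most at 0.160 and 0.149 without phlogopite replicate 4. Both were also lost when the 2 groups were fitted alone (0.143 and 0.189) and with library totals alone (0.0550 and 0.0527).

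A subset of members was uneven between replicates with both of these minerals. PAXINDRAFT_103062 read 16.9, 17.4, 27.7, 31.2 and 36.0 CPM with phlogopite, 18.9, 19.8, 32.1, 28.1 and 18.8 CPM with muscovite, and 15.3 to 19.3 CPM on K-depleted medium. Phlogopite replicates 3, 4 and 5 and muscovite replicates 3 and 4 reached the K-vermiculite range of 29.3 to 35.3 CPM or came near it, and the others stayed near the K-depleted values. The same order, with phlogopite replicates 3, 4 and 5 above the other 2 and muscovite replicates 3 and 4 above the other 3, was found for 21 members (19.4%) and for 7.52% of all tested genes. Taking phlogopite alone, replicates 3, 4 and 5 were above the other 2 for 29 members (26.9%, against 14.2% of all tested genes) and below them for 25 (23.1%, against 26.1%). These orders were noticed in the values and are a description. PAXINDRAFT_157086 showed it over a wide range, at 50.2, 52.5, 166, 209 and 225 CPM with phlogopite and 58.8, 51.6, 164, 101 and 50.1 CPM with muscovite. PAXINDRAFT_83502 read 3.25, 2.65, 5.64, 8.66 and 12.6 CPM with phlogopite and 8.56 to 9.29 CPM in all 5 K-vermiculite cultures.

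K-vermiculite was set against the other minerals to see how far the return differed from theirs. Since f had to be at least 0.25, the K-vermiculite side of this comparison was fixed upward by the rule. Against muscovite 85 members were called higher and 0 lower, where 39.1% of all tested genes were called, 18.9% higher and 20.2% lower; against phlogopite 91 were called higher and 0 lower, where 50.4% were called, 25.1% higher and 25.3% lower. In both comparisons 84 members were called higher, and 16 were called in neither. The shares of all tested genes for these joint counts were not computed, so nothing is read from them. PAXINDRAFT_103153 was 1 of these 16, at 30.1 ± 2.22 CPM with K-vermiculite, 27.6 ± 6.32 with muscovite and 30.3 ± 8.51 with phlogopite (SD, n = 5). PAXINDRAFT_93350 was another, with log2 fold changes of 0.27 (SE 0.16) against muscovite and 0.34 (SE 0.16) against phlogopite. The mean position with phlogopite was at or above that with K-vermiculite for 4 members, and with muscovite for 1.

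A run of 3 members is consecutive in the gene order of the reference for this strain: PAXINDRAFT_162912, PAXINDRAFT_76416 and PAXINDRAFT_76742. They were the only members with a member as the next gene. PAXINDRAFT_76416, in the middle, read 262, 251, 167, 170.5 and 221 CPM on complete medium, then 13.9, 12.2, 16.1, 9.19 and 12.8 CPM on K-depleted medium, and 27.4, 48.2, 34.4, 68.6 and 35.0 CPM with K-vermiculite. PAXINDRAFT_76742 read 140.3, 186, 146, 146 and 209 CPM, then 37.9, 41.03, 40.9, 24.5 and 34.9 CPM, then 65.4, 80.3, 74.1, 133 and 71.7 CPM in the same groups. PAXINDRAFT_162912 read 108, 117, 94.6, 98.7 and 119 CPM, then 34.1, 33.0, 35.9, 29.2 and 31.4 CPM, then 59.0, 73.4, 62.9, 119.8 and 78.2 CPM. All 3 were highest in K-vermiculite replicate 4. That was the highest K-vermiculite culture for 26 of the 108 members (24.1%), near the 26.5% of all tested genes.

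None of the 3 was called higher with muscovite than on K-depleted medium. PAXINDRAFT_76742 read 21.9, 14.2, 24.9, 16.4 and 18.0 CPM with muscovite and was the 1 member called lower there than on K-depleted medium (log2 difference -0.89 ± 0.20 SE, adjusted p 0.0157 by edgeR), a call that held without any single library and in every other fit. K-depleted replicate 4, at 24.5 CPM, fell inside the muscovite range. With phlogopite it read 42.2, 33.1, 25.3, 25.0 and 37.2 CPM, all above the highest muscovite value of 24.9 CPM (log2 difference 0.77 ± 0.20 SE, adjusted p 0.0317 by edgeR). This last call was lost in 6 of 25 fits without 1 library, at most at 0.0919 without muscovite replicate 2, and with replicate numbers as a block (0.0582). PAXINDRAFT_76416 averaged 8.92 ± 1.99 CPM with muscovite and 12.8 ± 2.51 CPM on K-depleted medium (SD, n = 5; log2 difference -0.51 ± 0.23 SE, adjusted p 0.248 by edgeR). PAXINDRAFT_162912 averaged 31.9 ± 3.64 and 32.7 ± 2.58 CPM (log2 difference -0.02 ± 0.13 SE, adjusted p 0.972 by edgeR).

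**Figure D5:**
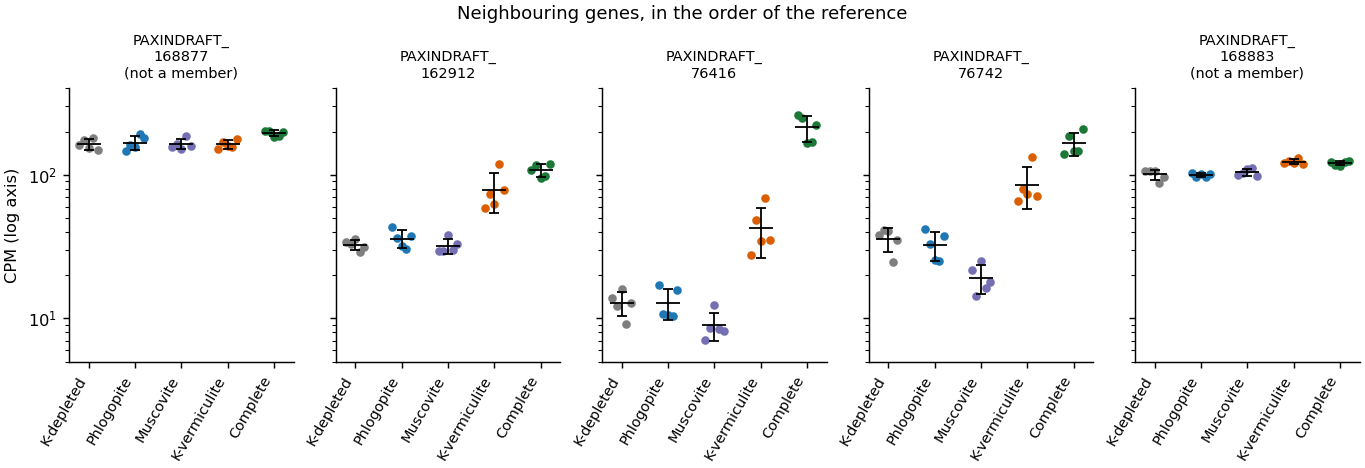
CPM (log axis) of the 3 consecutive members and of the next gene on either side, in the order of the reference, for each culture (points, 5 per group) with the group mean and SD (black). The 3 members are lowest on K-depleted medium and with muscovite or phlogopite, intermediate with K-vermiculite and highest on complete medium. PAXINDRAFT_168877 and PAXINDRAFT_168883 stay between 99.7 and 195 CPM on average in all groups.

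The genes on either side differed far less between the control media. Members needed a ratio of at least 3 between those media, so this contrast largely follows from the choice and is a description. PAXINDRAFT_168877 averaged 195 ± 9.19 CPM on complete medium, and 164 ± 13.8 CPM without KH2PO4 (SD, n = 5; log2 difference 0.15 ± 0.08 SE, adjusted p 0.0900 by edgeR). PAXINDRAFT_168883, on the other side, averaged 121 ± 4.32 CPM and 101 ± 8.17 CPM (log2 difference 0.16 ± 0.05 SE, adjusted p 0.00979 by edgeR), a small rise beside the log2 fold changes of 1.61, 3.96 and 2.10 of PAXINDRAFT_162912, PAXINDRAFT_76416 and PAXINDRAFT_76742. PAXINDRAFT_168883 also averaged 124 ± 4.89 CPM with K-vermiculite. The order of genes comes from the reference table for the strain, whose build may differ from that of the counts. A new sequence was recognised only where the start coordinate fell, so a change of sequence between neighbours could be missed.

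Members were last set beside the other 102 genes that met the same level and ratio thresholds. Called higher with muscovite than on K-depleted medium were 10 of the 108 members, 2 of the 83 genes that K-vermiculite left low and 5 of the 19 that it restored fully. Median log2 fold changes there were 0.26, 0.14 and 0.56. Lower with phlogopite than with muscovite were 11, 4 and 3 genes of the same sets, with medians of -0.16, -0.09 and -0.01. The difference between these sets was not tested, and the sets were chosen by f.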

How the data were processed

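Raw counts per gene, deposited by the authors as 1 table with a column for each of the 25 libraries, were the only values used. Per the submitters' processing notes the tools were bcl2fastq 2.19, STAR 2.5.2b and HTSeq; the genome build and counting settings are not stated there or in the labels. Libraries were made with a stranded mRNA kit, per the labels' protocols. CPM was computed from the column totals, and means ± SD are over the 5 labelled biological replicates of a group.

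Tests used edgeR 4.0.16 (R 4.3.3): TMM scaling, a low-count filter (minimum count 10, minimum total 15) that kept 12744 genes and all 108 members, and 1 robust quasi-likelihood fit over the 25 libraries with a coefficient for each of the 5 groups. P-values were two-sided and adjusted by Benjamini-Hochberg over the 12744 genes, with calls at an adjusted p below 0.05. The scripts were tested on simulated data. Alternatives were DESeq2 1.42.0, other scalings and filters, the 2 groups alone, a replicate block and leaving out each library.

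The members and lists were chosen with earlier results of these data known. Named genes were the 6 members with the highest mean on complete medium, the 4 with the highest ratio, the 2 highest and 2 lowest in f, up to 4 called between phlogopite and muscovite, up to 3 per direction called for each of these minerals against K-depleted medium, the 2 most variable with K-vermiculite, and neighbouring members; others were chosen after their values were seen. Protein and promoter sequences were not analysed here. All 18032 IDs matched the RefSeq gene table for the strain.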

Additional observations from a re-analysis of the deposited data

Results flagged for a closer look

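Single cultures that stood apart from the other 4 of their group were looked for in the 23 genes named by rule, which gave 115 groups of 5 cultures. A culture was listed where its gap to the nearest other one exceeded 0.71 of the group's range, Dixon's critical value, and 8 groups met this; chance lists about 1 group in 20. With muscovite, PAXINDRAFT_166580 read 392 CPM in replicate 4 (nearest other 324), PAXINDRAFT_76416 read 12.3 CPM in replicate 3 (nearest 8.6) and PAXINDRAFT_55253 read 6 CPM in replicate 2 (nearest 5.08). On complete medium, PAXINDRAFT_103315 read 12.4 CPM in replicate 5 (nearest 10) and PAXINDRAFT_169405 read 155 CPM in replicate 1 (nearest 279). PAXINDRAFT_169405 also read 19.9 CPM in phlogopite replicate 3 (nearest 31.5). PAXINDRAFT_76742 read 133 CPM in K-vermiculite replicate 4 (nearest 80.3), and PAXINDRAFT_79732 read 102 CPM in K-depleted replicate 5 (nearest 75.4).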

How the results depend on the processing

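The number of members was 345 with a ratio of at least 2 and 48 with at least 4, and 104 to 120 without 1 library. With TMM-scaled CPM it was 83, all among the 108, so the membership of the others rests on scaling by library totals. With DESeq2 size factors it was 81, of which 79 were among the 108. For phlogopite against muscovite, 12 members were called, 19 with DESeq2 and 4 to 16 without 1 library. For muscovite against K-depleted medium, 11 were called, 21 with DESeq2 and 5 to 14 without 1 library. For phlogopite against K-depleted medium, 5 were called, 0 with the 2 groups alone, 13 with DESeq2, 2 with library totals alone, 8 with a mean of at least 5 CPM and 1 to 20 without 1 library. Without 1 library, 80 to 88 members were called for K-vermiculite against muscovite, 85 to 93 against phlogopite, 102 to 107 against complete medium and 103 to 106 against K-depleted medium, and 108 between the control media; the last 3 comparisons chose the members and their counts are no test. Of 28 calls followed singly, 7 were kept in every alternative, 21 were lost in at least 1 and 0 reversed. Scaling by library totals alone put the median gene at a log2 difference of 0.11 between the control media. The causes of these changes were not tested.

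Pairing was taken only where all 5 same-number correlations of deviations were over 0.1, which held for no comparison. For phlogopite and muscovite 4 of 5 were (lowest -0.28; 2 cultures of 5 correlated best with their own number). For phlogopite and K-depleted medium all 5 were above 0 and 4 were over 0.1 (lowest 0.0985, mean 0.226 against -0.054 for other numbers; 3 of 5 best with their own number), a hint from the data and not from the design. With the replicate block, 10 members were called for phlogopite against muscovite, 13 for muscovite and 7 for phlogopite against K-depleted medium, 84, 91, 105 and 106 for K-vermiculite against muscovite, phlogopite, complete and K-depleted medium, and 108 between the control media.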
